A study of Drosophila melanogaster with 90 samples.

Results

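Lsp2, Fbp1 and Fbp2 are genes of the larval fat body that serve the storage of protein for metamorphosis, and their transcripts were followed here in Drosophila melanogaster pupae kept in altered gravity. Of 6 storage protein genes listed (Lsp1alpha, Lsp1beta, Lsp1gamma, Lsp2, Fbp1 and Fbp2), 3 had a probe set carrying exactly 1 gene symbol in the annotation used, with 1 probe set each among 18769 tested: 1641634_at for Lsp2 (gene identifier 45326), 1638338_a_at for Fbp1 (39566) and 1640035_at for Fbp2 (34259). Lsp1alpha, Lsp1beta and Lsp1gamma were not analysed here. These identifiers matched those of a RefSeq gene table.

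The larval fat body makes hexameric storage proteins in large amounts during the last larval instar, secretes them into the hemolymph, and takes part of them up again at pupariation under the control of ecdysone, the moulting hormone. The stored protein is a source of amino acids for the building of adult tissues, and larval fat body cells persist as free cells inside the pupa. Lsp2 encodes one of the hexameric serum proteins, Fbp1 encodes the receptor through which the fat body takes up larval serum protein, and Fbp2 encodes a fat body protein related in sequence to alcohol dehydrogenase.

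The study exposed Oregon R animals for 3.5 days at 24°C, through metamorphosis, in 3 ground based facilities, and hybridised RNA of pooled late pupae, collected shortly before eclosion, to 90 Affymetrix arrays in 32 groups of 2 to 4 arrays. The random positioning machine (RPM, 20 arrays) simulated microgravity (0g) beside a 1g control, and the magnet (30 arrays) held pupae at positions of 0g*, 1g* and 2g* inside the bore beside a 1g control outside it. The large diameter centrifuge (LDC, 40 arrays) gave 6g and 12g, with a rotational control (1g-rot) and a static 1g control. The magnetic field was equally strong at 0g* and 2g* and stronger at 1g*, so gravity and field cannot be told apart when either position is set against 1g* or against the 1g control outside, while 0g* against 2g* compares gravity at equal field strength.

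These gravity levels were combined with environmental constraints. A cold step held the animals at 12°C for 3 days before the exposure, and a closed container limited the oxygen, against constant temperature and an open container. The RPM was run with cold step and closed container, with cold step alone and without constraint. The magnet positions were run closed, with and without the cold step, and its 1g control also in open containers. The LDC was run in all 4 environments. Each array is one pool of whole pupae. A lower value can come from fewer fat body cells, from less RNA per cell or from other changes in the pool, and these cannot be told apart. The animals started as late larvae just before metamorphosis, and the cold step added 3 days before an exposure of the same length. Whether the groups matched in developmental stage was not tested. The labels call the pools of a group biological replicates but do not say whether they came from separate cultures, so p-values measure the spread between pools only. Nor do they say whether the environments of the RPM or of the magnet were run at the same time. Environment and run therefore cannot be told apart in these facilities.

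Values are log2 intensities normalised by the authors. Array medians lay between 5.03 and 5.15 for RPM arrays, between 4.99 and 5.11 for magnet arrays, and between 6.37 and 6.53 for LDC arrays. For this reason no level was compared between facilities. Of the 40 LDC arrays, 21 came from a parallel second experiment and 19 from the first. In both closed LDC environments all 6g and 12g arrays were from the second experiment and all 1g and 1g-rot arrays from the first. In the open ones 12g was from the first, 6g from the second, and 1g and 1g-rot from both. Differences were tested with limma, 1 fit per facility over all probe sets, with Benjamini-Hochberg adjustment within a comparison, and a gene was called at an adjusted p under 0.05. Differences are on the log2 scale and are given with their standard error (SE). Whether the arrays of compared groups overlapped is given as a description and not as a test. The share of all probe sets without overlap was not counted, so a lack of overlap does not set the members apart from other probe sets.

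All 3 probe sets were among the brightest of the pupal arrays. For Lsp2 the median position among all probe sets of an array was the 99.7th percentile of RPM arrays, the 99.76th of magnet arrays and the 99.67th of LDC arrays. For Fbp1 these positions were 99.1, 99.3 and 97.8, and for Fbp2 they were 99.0, 99.0 and 97.6. The lowest position of any of the 90 arrays was the 89.96th percentile, for Lsp2 in 1 of the LDC arrays at 6g after the cold step in closed containers. apolpp, the lipid carrier apolipophorin of the fat body, had median positions of 99.4, 98.9 and 98.7 in the same order. Sgs3, a glue protein of the larval salivary gland, had median positions of 16.1, 19.2 and 18.3. Single RPM arrays stood apart in glue genes. Replicate 3 at 0g without constraint had 11.11 for Sgs5 and 6.45 for Sgs3, while the other 5 arrays without constraint lay between 4.86 and 5.96 for Sgs5 and between 3.26 and 4.21 for Sgs3. Replicate 1 at 1g after the cold step had 7.47 for Sgs5, against 4.41 and 4.56 in the rest of its group. For Sgs3 that array was not apart, at 3.29 against 3.26 and 3.23.

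In the RPM no storage protein gene was called between 0g and 1g, and all 3 were lower after the cold step. Lsp2 without constraint was 13.2, 13.27 and 13.15 at 0g, against 13.28, 13.39 and 13.14 at 1g. After the cold step Lsp2 was 12.5, 12.21 and 12.76 at 0g, against 12.82, 12.68 and 12.58 at 1g. With cold step and closed container Lsp2 was 12.39, 12.57, 13.02 and 12.9 at 0g, against 12.5, 12.58, 12.95 and 13.15 at 1g. In each environment the 0g and 1g arrays of Lsp2 overlapped.

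Fbp1 and Fbp2 showed the same overlap between 0g and 1g in each of the RPM environments. Over the 3 members and 3 environments the 0g minus 1g differences ran between -0.20 (Lsp2, cold step, SE 0.18) and 0.16 (Fbp1, no constraint, SE 0.19). The count called by limma was 0 of 9, and 0 had an unadjusted p under 0.05. Over all probe sets, 0.00533% were called without constraint, 0% after the cold step and 0% with cold step and closed container, so these comparisons held almost no calls at all. For Lsp2 after the cold step the interval of the difference was -0.58 to 0.18, and for Fbp2 with cold step and closed container it was -0.28 to 0.30 (95% intervals). Whether the response to 0g differed between environments was tested too, and 0 of 6 such differences were called by limma, with 0 at an unadjusted p under 0.05 and 0% of all probe sets called in either comparison.

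**Figure D1:**
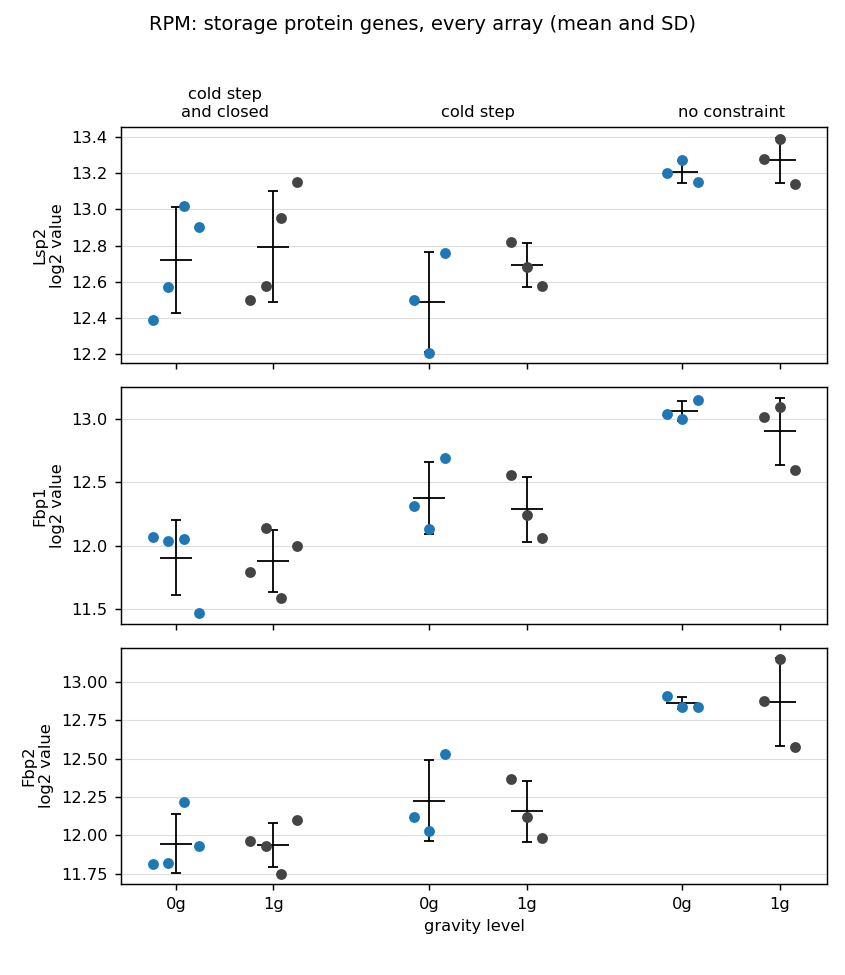
Log2 values of Lsp2, Fbp1 and Fbp2 in the 20 RPM arrays, by environment and gravity level. Points are arrays, horizontal bars are group means and whiskers are 1 SD; the 0g and 1g arrays overlap in each environment, and both groups without constraint lie highest.

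The cold step was followed by lower values of all 3 genes in the 1g controls of the RPM. Lsp2 was 12.82, 12.68 and 12.58 after the cold step, against 13.28, 13.39 and 13.14 without it, a fall of 1.49-fold. Fbp1 was 12.56, 12.24 and 12.06 after the cold step, against 13.01, 13.09 and 12.6 without it. Fbp2 was 12.37, 12.12 and 11.98 after the cold step, against 12.88, 13.15 and 12.58 without it. For each gene every array after the cold step lay below every array without it. How many other probe sets were separated in this way was not counted. Of all 18769 probe sets, 5251 had an unadjusted p under 0.05 by limma in this comparison, in either direction.

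The differences at 1g were -0.58 for Lsp2 (SE 0.18, adjusted p = 0.0415), -0.61 for Fbp1 (SE 0.19, adjusted p = 0.0417) and -0.71 for Fbp2 (SE 0.16, adjusted p = 0.00746). That is 3 of 3 members called, while 13.6% of all probe sets were called in this comparison. At 0g the differences were as large, -0.72 for Lsp2 (SE 0.18), -0.69 for Fbp1 (SE 0.19) and -0.64 for Fbp2 (SE 0.16), the arrays again did not overlap, and the adjusted p was 0.0559, 0.0826 and 0.0524, with 1.43% of all probe sets called. The response to 0g after the cold step minus that without it was -0.14 for Lsp2, -0.07 for Fbp1 and 0.08 for Fbp2 (adjusted p = 0.998 for each), so the differences after the cold step were not shown to differ between 0g and 1g. The call of Lsp2 at 1g was lost without any single array of the 6 at 1g except replicate 3 without constraint, or without replicate 1 at 0g after the cold step (-0.52 to -0.64, adjusted p between 0.0522 and 0.148). That of Fbp1 was lost without replicate 1 or 2 at 1g without constraint, replicate 2 or 3 at 1g after the cold step, replicate 2 at 0g without constraint or replicate 1 at 0g after the cold step (-0.50 to -0.61, adjusted p between 0.0501 and 0.174), and also in a fit of only the groups compared (adjusted p = 0.0651). Fbp2 lost its call only without replicate 2 of the 1g arrays without constraint (-0.57, adjusted p = 0.057).

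With the container closed on top of the cold step the receptor gene Fbp1 was lower again, without a call. Fbp1 was 12.07, 12.04, 12.05 and 11.47 at 0g with cold step and closed container, against 12.31, 12.13 and 12.69 with the cold step alone. All 4 of these Fbp1 arrays lay below the 3 others, and the difference of -0.47 (SE 0.18) did not pass the adjustment (adjusted p = 0.162, with 1.49% of all probe sets called). At 1g the same comparison gave -0.41 for Fbp1 (SE 0.18, adjusted p = 0.378, with 0.00533% called). Lsp2 differed by 0.23 at 0g and by 0.10 at 1g (SE 0.17 each), with overlapping arrays, and Fbp2 by -0.28 and -0.22 (SE 0.15 each).

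In the magnet the pupae in closed containers with and without the cold step can be compared at each position. Values were higher with the cold step there, which cannot be told apart from a difference between runs. At 1g* Lsp2 was 13.09, 13.1 and 13.11 with cold step and closed container, against 12.39, 12.49 and 12.13 closed without it. At 1g* Fbp1 was 12.59, 12.83 and 12.94 with cold step and closed container, against 12.08, 12.19 and 11.74 closed. At 1g* Fbp2 was 12.41, 12.58 and 12.88 with cold step and closed container, against 11.9, 12.07 and 11.48 closed. No array overlapped between these groups. The rises were 1.70-fold for Lsp2 (0.76, SE 0.12, adjusted p = 2.31e-05), 1.72-fold for Fbp1 (0.78, SE 0.21, adjusted p = 0.00748) and 1.75-fold for Fbp2 (0.81, SE 0.21, adjusted p = 0.00736). All 3 members were called, in a comparison where 23.9% of all probe sets were. Fbp2 lost its call without replicate 3 closed (0.64, adjusted p = 0.0518) or without replicate 3 with cold step and closed container (0.68, adjusted p = 0.0511), and Lsp2 and Fbp1 kept theirs with each of the 30 magnet arrays left out.

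At 0g* Lsp2 was 12.99, 12.88 and 13.15 with cold step and closed container, against 12.6, 12.22 and 12.58 closed. Fbp1 at 0g* was 12.63, 12.46 and 12.55 with cold step and closed container, against 11.81, 11.49 and 11.82 closed. Both genes were higher in each of these cold step arrays, by 0.54 for Lsp2 (SE 0.12, adjusted p = 0.00548) and by 0.84 for Fbp1 (SE 0.21, adjusted p = 0.0153). For Fbp2 the difference at 0g* was 0.62 (SE 0.21), its arrays did not overlap, and the adjusted p was 0.0862. Called were 2 of 3 members, beside 5.94% of all probe sets. Without replicate 2 closed neither remained called (Lsp2 0.42, adjusted p = 0.0614; Fbp1 0.73, adjusted p = 0.102), and Fbp1 also lost its call without replicate 1 or 3 with cold step and closed container (0.80 and 0.84, adjusted p = 0.0521 and 0.0584). In a fit of only the groups compared the call of Lsp2 was lost (adjusted p = 0.158).

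At 2g* Fbp1 was 12.54, 13.23 and 12.97 with cold step and closed container, against 12.07, 12.13 and 12.33 closed. Fbp2 at 2g* was 12.47, 13.05 and 12.65 with cold step and closed container, against 11.8, 11.79 and 12.09 closed. Here both Fbp genes rose without overlap, by 0.74 for Fbp1 (SE 0.21, adjusted p = 0.0250) and 0.83 for Fbp2 (SE 0.21, adjusted p = 0.0131). Lsp2 at 2g* differed by 0.25 without overlap (SE 0.12, adjusted p = 0.225). Called were 2 of 3 members and 8.36% of all probe sets. The call of Fbp1 was lost without replicate 1 or 2 closed, or replicate 2 or 3 with cold step and closed container (0.58 to 0.71, adjusted p between 0.0714 and 0.150) and in a fit of only the groups compared (adjusted p = 0.0763), and that of Fbp2 without replicate 2 of either group (0.78 and 0.67, adjusted p = 0.0510 and 0.0948).

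In the 1g control outside the bore Lsp2 was 13.04, 12.86 and 13.01 with cold step and closed container, against 12.62, 12.53 and 12.52 closed, a rise of 0.41 without overlap (SE 0.12, adjusted p = 0.0160). Fbp1 and Fbp2 differed by 0.50 and 0.43 (SE 0.21 each, adjusted p = 0.0983 and 0.160). Called were 1 of 3 members and 16.9% of all probe sets. Lsp2 lost its call without replicate 2 or 3 closed, or replicate 1 or 3 with cold step and closed container (0.38 to 0.40, adjusted p between 0.0547 and 0.0710). Over the 4 positions the 12 differences of the members were all positive, between 0.25 and 0.84, and 8 of them were called.

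The 1g control of the magnet was also kept in open containers. With the cold step in open containers Lsp2 was 12.88, 12.93 and 12.8, against 12.64, 12.77 and 12.46 without constraint. These arrays did not overlap, and the difference of 0.25 (SE 0.12) did not pass the adjustment (adjusted p = 0.125). Fbp1 and Fbp2 differed by 0.30 and 0.48 with overlapping arrays (SE 0.21 each). None of the 3 members was called by limma in this comparison, 2 had an unadjusted p under 0.05 (Lsp2 and Fbp2), and 21.8% of all probe sets were called. Closing the container without a cold step gave differences of -0.07 for Lsp2, 0.17 for Fbp1 and 0.24 for Fbp2 (adjusted p = 0.936 to 0.975, with 0% called). Closing it on top of the cold step gave 0.10 for Lsp2, 0.37 for Fbp1 and 0.19 for Fbp2, none of them called by limma or at an unadjusted p under 0.05, with 1.58% of all probe sets called.

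Position in the magnet gave 1 call among 36 member comparisons, for Lsp2 in closed containers without the cold step. Lsp2 was 12.81, 12.95 and 12.86 at 2g*, against 12.39, 12.49 and 12.13 at 1g*, and the groups did not overlap. The rise was 0.54 (SE 0.12, 1.45-fold, adjusted p = 0.00838), in a comparison where 3.36% of all probe sets were called. Against the 1g control outside the bore, at 12.62, 12.53 and 12.52, Lsp2 at 2g* was higher in every array by 0.32 (SE 0.12), and this did not pass the adjustment (adjusted p = 0.319, with 0.416% called). Lsp2 at 0g*, at 12.6, 12.22 and 12.58, overlapped both 1g* and 1g. The call of 2g* minus 1g* was lost without replicate 3 at 1g* (0.43, adjusted p = 0.0634) or without replicate 2 at 2g* (0.50, adjusted p = 0.0617), and in a fit of these groups alone (adjusted p = 0.199).

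Fbp1 and Fbp2 were lowest at 0g* among the closed groups without the cold step. Fbp1 at 0g* was 11.81, 11.49 and 11.82, against 12.42, 12.18 and 12.19 at 1g, a difference of -0.56 without overlap (SE 0.21). Fbp2 at 0g* was 11.64, 11.36 and 11.79, against 12.33, 11.8 and 12.01 at 1g, a difference of -0.45 without overlap (SE 0.21). Neither passed the adjustment (adjusted p = 0.998 for both, 0% of all probe sets called), although the unadjusted p was 0.0131 and 0.0457. In cold step and closed container the differences of 0g*, 1g* and 2g* from 1g lay between -0.26 and 0.25 for the 3 genes, and 0 of 9 were called or had an unadjusted p under 0.05 by limma, while 0.501%, 0.0426% and 0.101% of all probe sets were called at 0g*, 1g* and 2g*.

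Between 0g* and 2g*, the positions of equal field strength, Fbp2 had its widest difference with cold step and closed container. Fbp2 there was 12.34, 12.16 and 12.15 at 0g*, against 12.47, 13.05 and 12.65 at 2g*. The difference of -0.51 without overlap (SE 0.21) was not called (adjusted p = 0.293, with 3.85% of all probe sets called). Lsp2 with cold step and closed container differed by 0.02 between 2g* and 1g* (95% interval -0.22 to 0.26, 0% called), and no member was called between 0g* and 1g* (2.49% called). In closed containers without the cold step 0.0107% of all probe sets were called at 1g* minus 1g, 0.0213% at 0g* minus 1g* and 0.352% at 0g* minus 2g*, none of them a member. Lsp2 at 0g* was below 2g* there by 0.41 without overlap (-0.41, SE 0.12, adjusted p = 0.146). Differences between both environments in the response to position were called for 0 of 9 by limma, with 1 at an unadjusted p under 0.05 (Lsp2 at 1g*, 0.35, SE 0.16), and with 0% of all probe sets called at 0g*, 0.016% at 1g* and 0% at 2g*.

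**Figure D2:**
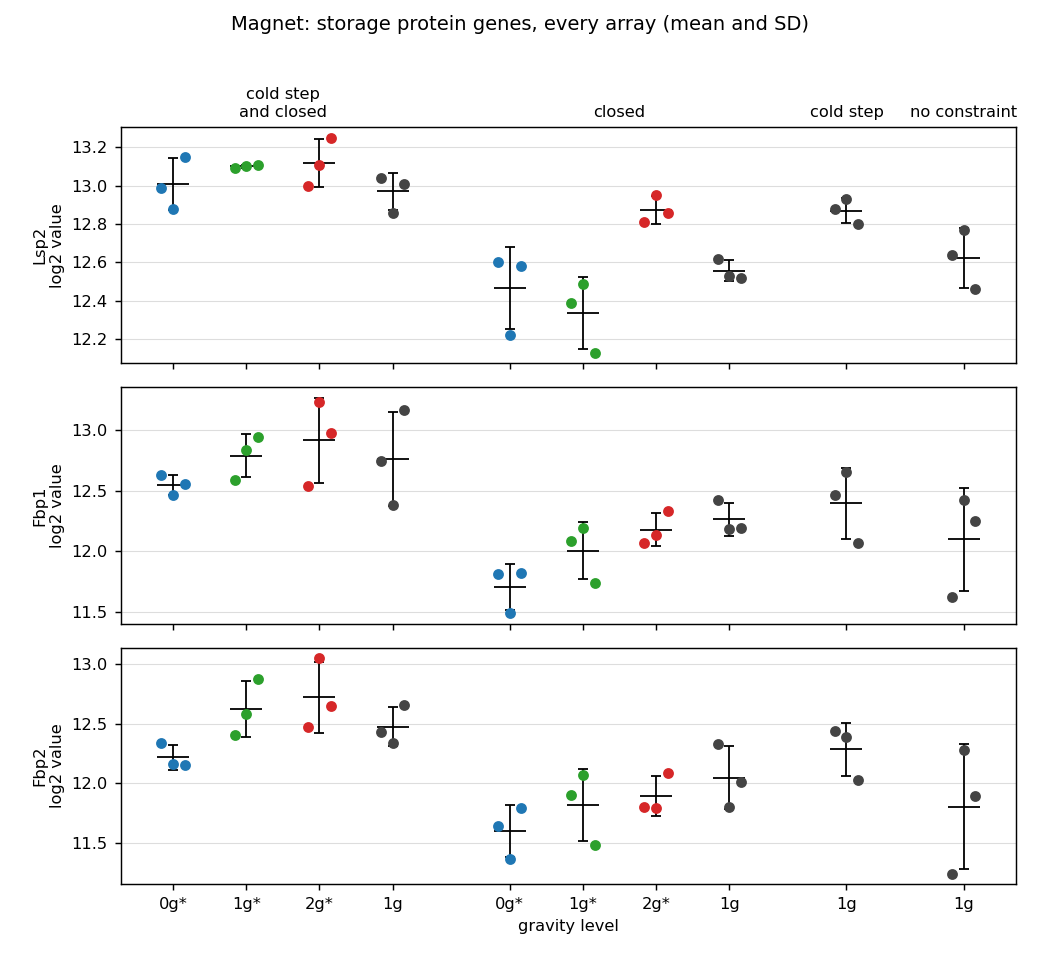
Log2 values of Lsp2, Fbp1 and Fbp2 in the 30 magnet arrays, by environment and position. Points are arrays, horizontal bars are group means and whiskers are 1 SD; with cold step and closed container the Lsp2 arrays lie between 12.86 and 13.25, and closed without the cold step between 12.13 and 12.95.

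In the LDC the widest differences of the series for these genes were found at 6g and 12g with cold step and closed container. Lsp2 was 13.83 and 13.96 at 1g, 14.07 and 13.99 at 1g-rot, 9.87 and 12.72 at 6g, and 14.22 and 14.16 at 12g. Fbp1 was 12.01 and 12.08 at 1g, 12.79 and 10.82 at 1g-rot, 10.52 and 10.2 at 6g, and 13.7 and 13.45 at 12g. Fbp2 was 11.87 and 12.16 at 1g, 12.71 and 11.33 at 1g-rot, 10.85 and 10.52 at 6g, and 13.7 and 13.27 at 12g. For each of the 3 genes both 6g arrays lay below, and both 12g arrays above, every other array of this environment. The title of the first 12g array (14.22 for Lsp2) does not name its constraints, and its group was taken from its other labels.

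The study's sample table marks the 12g and 6g arrays here as replicates of the parallel second experiment. Array names there start with Q at 12g, like those of LDC groups without the cold step, and with R at 6g. Whether the 12g and 6g arrays shared a run is not stated. At 12g the levels exceeded those at 6g by 2.90 for Lsp2 (SE 0.64, 7.44-fold, adjusted p = 0.00615), by 3.22 for Fbp1 (SE 0.58, 9.29-fold, adjusted p = 0.00155) and by 2.80 for Fbp2 (SE 0.45, 6.96-fold, adjusted p = 0.000705). All 3 members were called, against 7.71% of all probe sets. Fbp1 and Fbp2 kept the call with each of the 40 arrays left out, at 3.06 to 3.38 and 2.59 to 3.02. Lsp2 did not: without the 6g array at 9.87 its difference was 1.47 (adjusted p = 0.316), and in a fit of only the groups compared the difference of 2.90 was not called either (adjusted p = 0.231). In that same 6g array Fbp1 and Fbp2 were slightly higher than in the other 6g array.

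Against the controls the 6g groups gave calls of Lsp2 that rest on the same array. Lsp2 at 6g was lower than at 1g by 2.60 on the log2 scale (-2.60, SE 0.64, adjusted p = 0.0156, 6.4% of all probe sets called) and lower than at 1g-rot (-2.74, SE 0.64, adjusted p = 0.00687, 11.5% called). Without the array at 9.87 these differences were -1.18 (adjusted p = 0.511) and -1.31 (adjusted p = 0.346). The call against 1g was also lost without 1g replicate 1 (-2.67, adjusted p = 0.0719) or replicate 2 (-2.54, adjusted p = 0.128), and that against 1g-rot without 1g-rot replicate 2 (-2.78, adjusted p = 0.0552). Neither was called in a fit of only the groups compared (adjusted p = 0.130 and 0.0856). Fbp1 at 6g differed from 1g by -1.69 (SE 0.58, adjusted p = 0.0791) and Fbp2 by -1.33 (SE 0.45, adjusted p = 0.0739), without overlap, and from 1g-rot by -1.45 (SE 0.58, adjusted p = 0.106) and -1.34 (SE 0.45, adjusted p = 0.0545). Since 6g and 1g were run in different experiments here, gravity and experiment cannot be told apart, and with a term for the experiment taken from the open environments Lsp2 differed by -1.66 from 1g (adjusted p = 0.210) and by -1.79 from 1g-rot (adjusted p = 0.145).

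At 12g Fbp1 and Fbp2 were above both controls without overlap, and these differences did not pass the adjustment. Fbp1 at 12g exceeded 1g by 1.53 (SE 0.58, adjusted p = 0.228) and 1g-rot by 1.77 (SE 0.58, adjusted p = 0.109). Fbp2 at 12g exceeded 1g by 1.47 (SE 0.45, adjusted p = 0.133) and 1g-rot by 1.47 (1.465, SE 0.45, adjusted p = 0.0863). None of the 3 members was called in either comparison, in which 0.421% and 2.12% of all probe sets were, and the unadjusted p of Fbp1 and Fbp2 was between 0.00318 and 0.0144. The rotational control differed from 1g by 0.14 for Lsp2, -0.24 for Fbp1 and 0.01 for Fbp2 (0.00533% of all probe sets called).

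In the other 3 LDC environments no storage protein gene was called between gravity levels by limma, and 1 of these tests had an unadjusted p under 0.05 (Fbp2, closed containers, 6g minus 1g). Without constraint Lsp2 was 14, 13.79 and 13.78 at 1g, 14.09, 13.82 and 13.81 at 1g-rot, 13.85 and 13.96 at 6g, and 14.08 and 14.04 at 12g. Fbp1 without constraint was 13.24, 12.55 and 12.17 at 1g, 13.33, 12.65 and 12.1 at 1g-rot, 11.42 and 11.96 at 6g, and 12.8 and 12.97 at 12g. For Lsp2 the arrays of the first experiment, at 14.00 to 14.09, all lay above those of the second, at 13.78 to 13.96, and the same held for Fbp1, at 12.80 to 13.33 in the first and 11.42 to 12.65 in the second. At 12g minus 6g, which were first against second experiment, Fbp1 differed by 1.20 (1.195, SE 0.58, adjusted p = 0.139), and 13.2% of all probe sets were called in that comparison. The other comparisons without constraint had 0.149% called at 12g minus 1g, 0% at 6g minus 1g, 0.016% at 1g-rot minus 1g, 7.69% at 12g minus 1g-rot and 0.0107% at 6g minus 1g-rot. Fbp2 at 12g, 12.61 and 12.69, lay above 1g, at 12.34, 12.46 and 12.35, by 0.27 (SE 0.41) and 1g-rot was above 1g by 0.25 (SE 0.37).

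After the cold step in open containers Lsp2 varied more between arrays than without constraint. It was 13.68, 13.35 and 11.09 at 1g, 13.82, 11.81 and 12.19 at 1g-rot, 12.05 and 12.47 at 6g, and 13.03, 13.36 and 13.75 at 12g. The 5 arrays of the first experiment lay between 13.03 and 13.82, and the 6 of the second between 11.09 and 13.35. At 12g Lsp2 was above 6g by 1.12 without overlap (SE 0.59, adjusted p = 0.120), first against second experiment, while 43% of all probe sets were called. The other comparisons after the cold step had 10.8% called at 12g minus 1g, 0.213% at 6g minus 1g, 0.0533% at 1g-rot minus 1g, 33.2% at 12g minus 1g-rot and 10.8% at 6g minus 1g-rot. Fbp1 and Fbp2 did not share this split by experiment: Fbp1 lay between 10.82 and 12.11 in the first and between 10.88 and 12.18 in the second.

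In closed containers without the cold step Lsp2 was 13.63, 13.34 and 13.41 at 1g, 13.82, 13.87 and 13.99 at 1g-rot, 13.56 and 13.59 at 6g, and 12.79, 13.4 and 13.27 at 12g. Fbp2 was 10.64, 11.34 and 10.58 at 1g, 11.38, 11.01 and 11.04 at 1g-rot, 11.92 and 11.88 at 6g, and 10.85, 11.14 and 12.52 at 12g. The 6g arrays of Fbp2 lay above all arrays of 1g and 1g-rot, by 1.05 over 1g (SE 0.41, adjusted p = 0.148, with 4.42% of all probe sets called). The other comparisons of closed containers had 17.5% called at 12g minus 1g, 0% at 1g-rot minus 1g, 12.5% at 12g minus 6g, 15.6% at 12g minus 1g-rot and 4.59% at 6g minus 1g-rot.

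With cold step and closed container Fbp2 at 6g lay below the controls, against above them in closed containers without the cold step, and the difference between both responses of Fbp2 to 6g was itself called (-2.38, SE 0.61, adjusted p = 0.0260, with 3.66% of all probe sets called). For Fbp1 that difference of responses was -2.67 (SE 0.79, adjusted p = 0.0577) and for Lsp2 -2.72 (SE 0.87, adjusted p = 0.0837). In both environments the 6g arrays were of the second experiment and the 1g arrays of the first. The call of Fbp2 was lost without any single array of the 4 groups compared except 1g closed replicates 1 and 2 (-2.21 to -2.54, adjusted p between 0.0608 and 0.120). Of all 36 differences between environments in the response to gravity in the LDC this was the only call by limma, and 10 had an unadjusted p under 0.05. Fbp2 also differed by 1.82 in its response to 12g between cold step with closed container and cold step alone (SE 0.59, adjusted p = 0.0670, with 3.91% of all probe sets called). In the other 10 such comparisons between 0% and 14.5% of all probe sets were called.

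**Figure D3:**
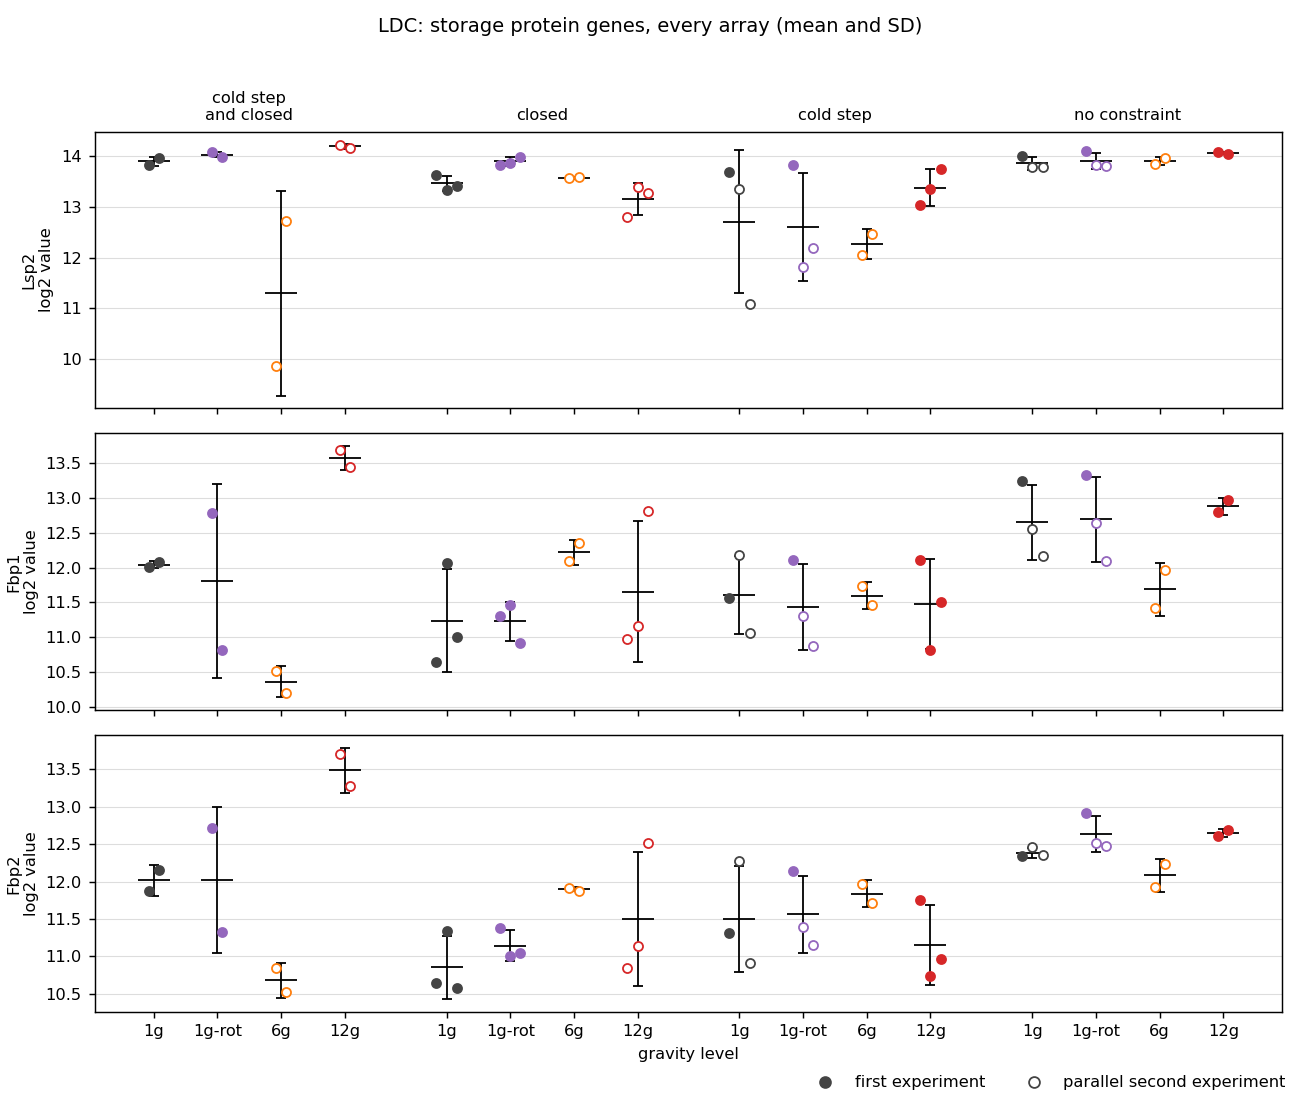
Log2 values of Lsp2, Fbp1 and Fbp2 in the 40 LDC arrays, by environment and gravity level. Filled points are arrays of the first experiment and open points those of the parallel second one, bars are group means and whiskers 1 SD; with cold step and closed container the 6g arrays lie lowest and the 12g arrays highest for each gene.

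Comparing environments at 1 gravity level in the LDC, the Fbp genes at 12g were highest with cold step and closed container. Fbp2 at 12g was 13.7 and 13.27 with cold step and closed container, against 11.75, 10.74 and 10.96 with the cold step alone. Fbp1 at 12g was 13.7 and 13.45 with cold step and closed container, against 12.11, 10.82 and 11.5 with the cold step alone. Both genes rose without overlap, by 2.34 for Fbp2 (SE 0.41, 5.05-fold, adjusted p = 0.00158) and by 2.10 for Fbp1 (SE 0.53, 4.28-fold, adjusted p = 0.0137), while 12.9% of all probe sets were called. These groups were second against first experiment, which cannot be told apart from the closing of the container. With the experiment term the differences were 2.57 for Fbp2 (adjusted p = 0.00187) and 2.80 for Fbp1 (adjusted p = 0.00436). Fbp1 lost its call without cold step replicate 2 (1.77, adjusted p = 0.0625), or without replicate 1 or 2 with cold step and closed container (1.97 and 2.22, adjusted p = 0.0842 and 0.0660), or in a fit of only the groups compared (adjusted p = 0.0609), and Fbp2 kept it with each array left out.

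Against closed containers without the cold step, within the second experiment, Fbp2 at 12g was 13.7 and 13.27 with cold step and closed container, against 10.85, 11.14 and 12.52 closed. The rise of 1.98 (SE 0.41, 3.95-fold, adjusted p = 0.0159) was called, beside 1.57% of all probe sets, and was lost without any single array of these 5 except the closed array at 12.52 (1.66 to 2.20, adjusted p between 0.0538 and 0.112), and in a fit of only the groups compared (adjusted p = 0.270). For Fbp1 the difference was 1.92 (SE 0.53, adjusted p = 0.0612). At 6g the direction was the opposite. Lsp2 at 6g was 9.87 and 12.72 with cold step and closed container, against 13.56 and 13.59 closed (-2.28, SE 0.64, adjusted p = 0.0126), and Fbp1 was 10.52 and 10.2, against 12.09 and 12.35 closed (-1.86, SE 0.58, adjusted p = 0.0273). In this comparison 16% of all probe sets were called. Without the array at 9.87 the difference of Lsp2 was -0.86 (adjusted p = 0.565), and its call was also lost without either closed array (-2.30 and -2.27, adjusted p = 0.0675 and 0.0707) or in a fit of only the groups compared (adjusted p = 0.127). All 4 arrays were of the second experiment. With the other groups of the fit split by experiment, the adjusted p of limma was 0.00407 for Lsp2 and 0.0186 for Fbp1. That setting compares the same 4 arrays and so cannot test the experiment. The call of Fbp1 was lost without any single array of the 4 (adjusted p between 0.0856 and 0.142).

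Closing the container without a cold step was followed by lower Fbp2 in the LDC. At 1g Fbp2 was 10.64, 11.34 and 10.58 closed, against 12.34, 12.46 and 12.35 without constraint, a fall of 2.89-fold without overlap (-1.53, SE 0.37, adjusted p = 0.0214, 3.86% of all probe sets called). All 3 closed arrays and 1 of the open ones were of the first experiment, and within it the difference was -1.49 (adjusted p = 0.129). The call was lost without open replicate 2 or 3 or closed replicate 1 or 3 (-1.39 to -1.55, adjusted p between 0.0584 and 0.104). At 12g Fbp2 was 10.85, 11.14 and 12.52 closed, against 12.61 and 12.69 without constraint (-1.15, SE 0.41, adjusted p = 0.0457, 23.4% called). That comparison was second against first experiment, and with the experiment term it was -0.91 (adjusted p = 0.219). Without open replicate 1 or 2 or closed replicate 1 or 2 it was between -0.82 and -1.19 (adjusted p between 0.142 and 0.196), and the call was also lost without any of 13 arrays of other groups (adjusted p between 0.0501 and 0.0518), in a fit of only the groups compared (adjusted p = 0.193) and with each array centred on its median (-1.14, adjusted p = 0.0514). At 1g-rot Fbp2 differed by -1.49 (SE 0.37, adjusted p = 0.0577, 0.229% called) and at 6g by -0.19 (SE 0.45, 0% called). Fbp1 in these comparisons differed by -1.41 at 1g (adjusted p = 0.0883), -1.23 at 12g (adjusted p = 0.0891) and -1.47 at 1g-rot (adjusted p = 0.0955).

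After the cold step in open containers Fbp2 was lower in 1 LDC group by the test. At 1g-rot Fbp2 was 12.14, 11.4 and 11.15 after the cold step, against 12.91, 12.52 and 12.47 without constraint (-1.07, SE 0.37, adjusted p = 0.0406, 20.4% of all probe sets called). The arrays did not overlap, and the difference was -0.77 within the first experiment (adjusted p = 0.796) and -1.22 within the second (adjusted p = 0.0490). The call was lost without any single array of these 6 except cold step replicate 1 (-0.86 to -1.15, adjusted p between 0.0705 and 0.201), in a fit of only the groups compared (adjusted p = 0.0738) and with each array centred on its median (-1.03, adjusted p = 0.0507). At all 4 gravity levels the 3 genes differed by negative values after the cold step, between -0.09 (Fbp1 at 6g) and -1.65 (Lsp2 at 6g), and 1 of these 12 was called. Lsp2 at 1g differed by -1.15 (SE 0.52, adjusted p = 0.148), with 16% of all probe sets called. At 6g 22.8% and at 12g 0.597% of all probe sets were called.

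In the remaining LDC environment comparisons no member was called. Lsp2 at 1g-rot with cold step and closed container exceeded the cold step alone by 1.42 without overlap (SE 0.59, adjusted p = 0.0673, 28.7% of all probe sets called), and at 1g by 1.19 (SE 0.59, adjusted p = 0.253, 3.63% called). Fbp2 with cold step and closed container exceeded closed containers by 1.16 at 1g without overlap (SE 0.41, adjusted p = 0.196, 1.41% called) and by 0.88 at 1g-rot with overlap (SE 0.41, adjusted p = 0.329, 3.32% called). At 6g with cold step and closed container both Fbp genes were below the cold step alone without overlap, with differences of -1.24 for Fbp1 (SE 0.58) and -1.16 for Fbp2 (SE 0.45), and 0% of all probe sets were called.

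Side by side, Lsp2 after the cold step in open containers at 1g lay below the constant temperature in the RPM (-0.58) and the LDC (-1.15) and above it in the magnet (0.25), with no overlap of arrays in any of the 3. Only the RPM difference was called. The facilities share no arrays, array medians of the LDC lay above those of the RPM and the magnet, and the difference between facilities was not tested.

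**Figure D4:**
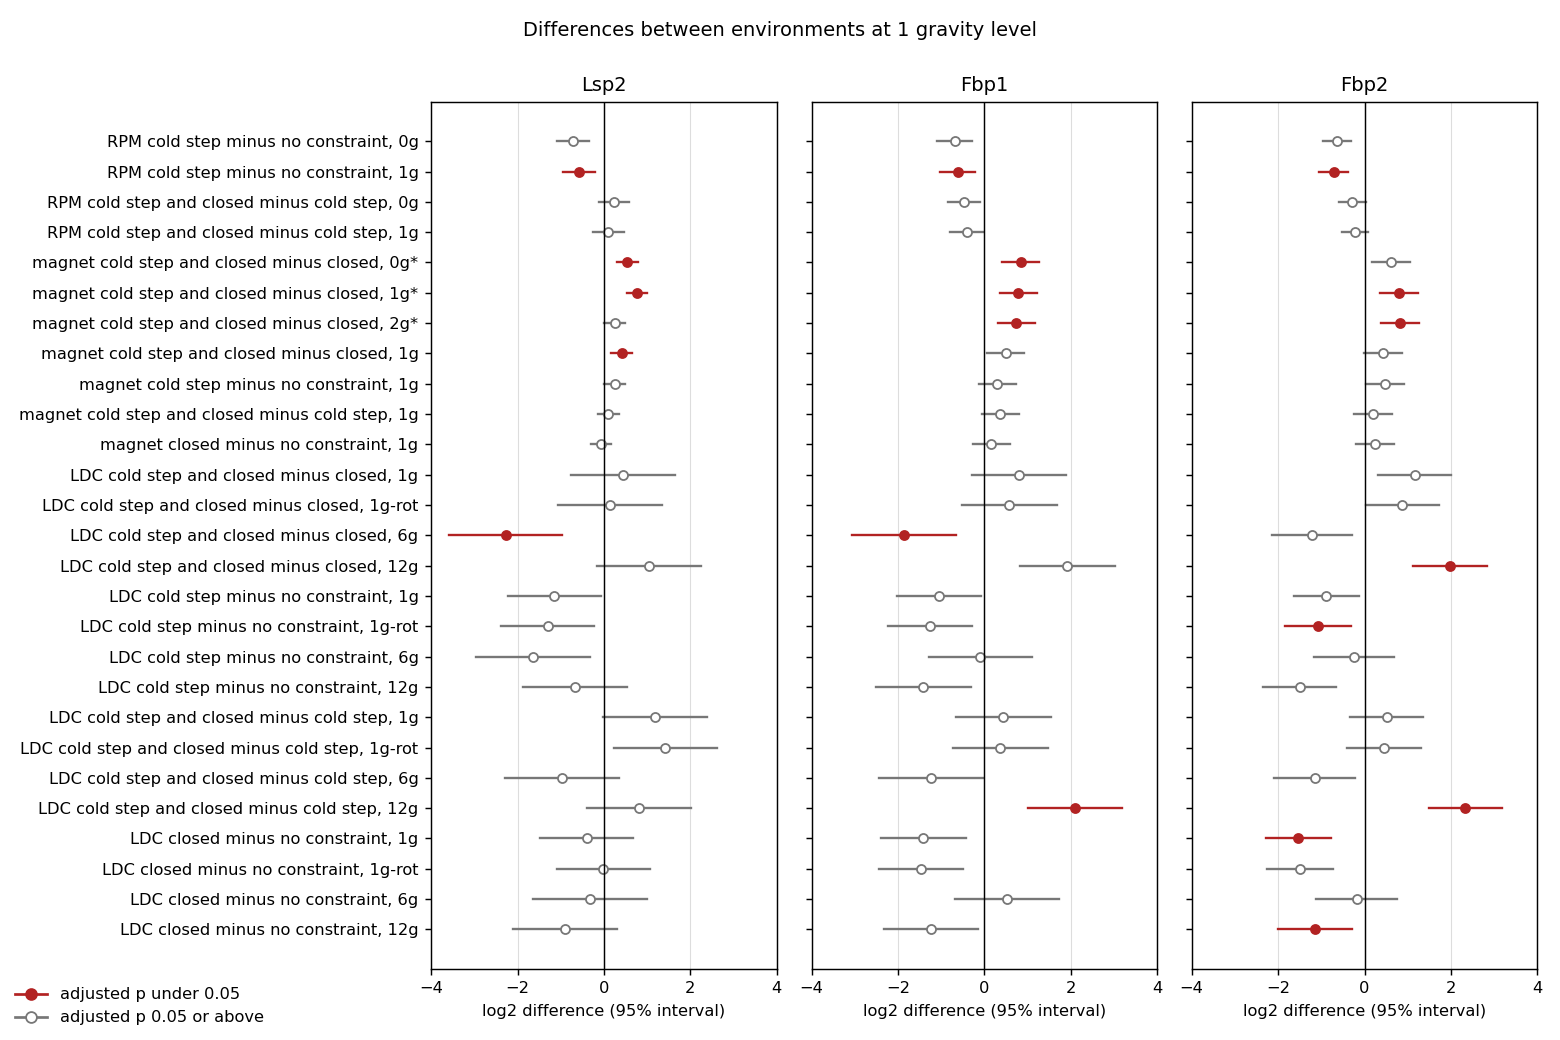
Log2 differences between environments at 1 gravity level for Lsp2, Fbp1 and Fbp2, each with its 95% interval, in the 27 environment comparisons of the 3 facilities. Filled red points passed an adjusted p under 0.05 (limma, Benjamini-Hochberg); those of the RPM lie below 0, those of the magnet above 0, and those of the LDC on both sides.

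Ordered by group mean, Lsp2 was lowest in the RPM at 0g after the cold step (12.49 ± 0.28, SD, n = 3) and highest at 1g without constraint (13.27 ± 0.13). In the magnet it was lowest at 1g* closed (12.34 ± 0.19) and highest at 2g* with cold step and closed container (13.12 ± 0.13). In the LDC both ends belonged to cold step and closed container, 6g (11.30 ± 2.02, n = 2) and 12g (14.19 ± 0.04, n = 2). Both LDC groups were also lowest and highest for Fbp1 (10.36 ± 0.23 and 13.58 ± 0.18) and Fbp2 (10.69 ± 0.23 and 13.49 ± 0.30). The span between these ends was 0.78 for Lsp2 in both the RPM and the magnet, and 2.90, 3.22 and 2.80 for Lsp2, Fbp1 and Fbp2 in the LDC.

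Most neighbours in this order were not separated. Of the 5 neighbouring pairs of groups in the RPM the arrays overlapped in 5 for Lsp2, 5 for Fbp1 and 4 for Fbp2, where 0g after the cold step and 0g without constraint did not overlap and had means 0.64 apart. Of 9 neighbouring pairs in the magnet 8 overlapped for Lsp2, and 9 each for Fbp1 and Fbp2. Of 15 in the LDC 13 overlapped for Lsp2 and 12 each for Fbp1 and Fbp2. The highest LDC group, 12g with cold step and closed container, did not overlap with the next one, 12g without constraint, and its mean was higher by 0.13 for Lsp2, 0.69 for Fbp1 and 0.84 for Fbp2.

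Fbp1 and Fbp2 varied together, array by array, more closely than either did with Lsp2. After each array's group mean was taken off, Fbp1 and Fbp2 correlated at r = 0.67 over the 20 RPM arrays, 0.90 over the 30 magnet arrays, and 0.90 over the 40 LDC arrays. Lsp2 correlated with Fbp1 at 0.16, 0.53 and 0.21 in these facilities, and with Fbp2 at 0.65, 0.47 and 0.23. Over group means the correlation of Fbp1 with Fbp2 was 0.98 over 6 RPM groups, 0.98 over 10 magnet groups and 0.95 over 16 LDC groups. These are descriptions, since values of 1 array share its RNA pool, hybridisation and normalisation. The difference between Fbp1 and Fbp2 within an array ran between -0.51 and 0.90 over the 90 arrays.

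**Figure D5:**
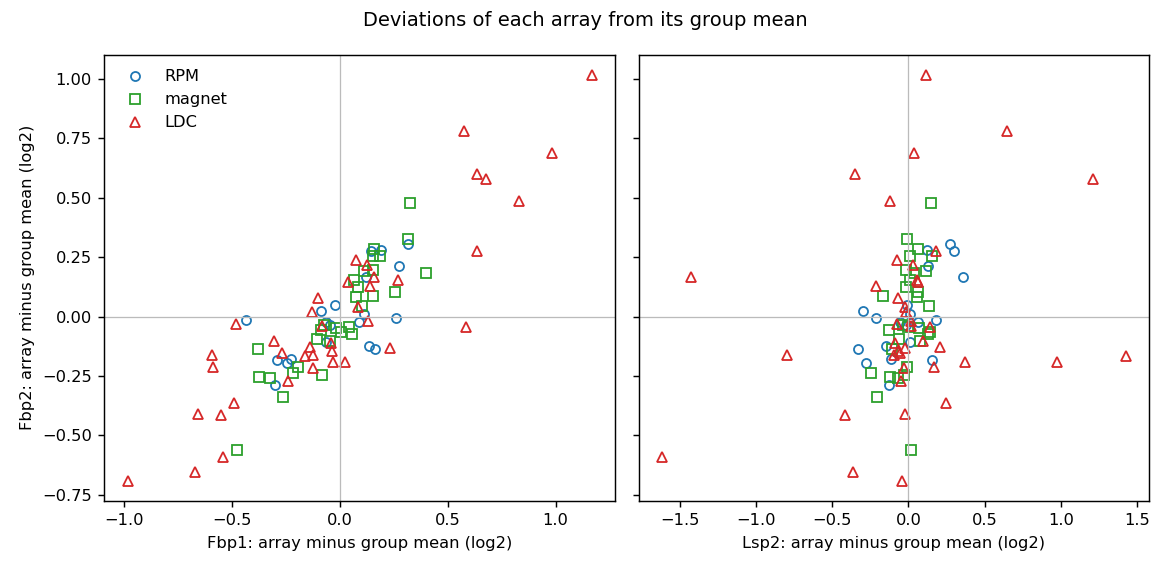
Deviation of each array from its group mean, log2, for Fbp2 against Fbp1 (left) and Fbp2 against Lsp2 (right) in 90 arrays. Symbols mark the facility; the Fbp1 and Fbp2 deviations lie along a line (r = 0.87 over all arrays), and those of Lsp2 and Fbp2 scatter more (r = 0.27).

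Among 7904 other probe sets with 1 symbol and a level above the median of all probe sets in each facility, the transcripts whose 32 group means, centred within each facility, followed Lsp2 most closely were hll (Pearson r = 0.93), CG4199 (r = 0.90) and Cyp9c1, a cytochrome P450 (r = 0.90). For Fbp1 they were CG8100, CG30026 and Ama, which encodes the secreted adhesion protein Amalgam (r = 0.88 each). For Fbp2 they were CG8100 (r = 0.94), Drsl5, a drosomycin-like peptide (r = 0.90), and Obp99b, an odorant binding protein (r = 0.88). CG8100 thus led both Fbp lists, and its correlation with Fbp2 was 0.98 over RPM groups, 0.96 over magnet groups and 0.96 over LDC groups. CG30026 followed Fbp1 at 0.93 over LDC groups and at 0.48 over RPM groups. Values of 1 group share arrays, RNA pools and normalisation, and the coefficients describe likeness over groups only.

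Other fat body genes were read beside the members from a list of 20, of which 17 were measured. In the RPM at 1g after the cold step 1 rose and 4 fell, while 13.6% of all probe sets were called. The list median was -0.29, against 0.01 for all probe sets. Mtp, which loads lipid onto lipophorin, fell by 0.73 (adjusted p = 0.00722) and FASN1, a fatty acid synthase, fell by 0.89 (adjusted p = 0.00895), in the same comparison in which Lsp2, Fbp1 and Fbp2 fell. In the magnet at 1g*, with cold step and closed container against closed, 8 rose and 2 fell (median 0.41, against -0.09 for all probe sets). Of all probe sets 23.9% were called there. Sardh, a sarcosine dehydrogenase, rose by 1.47 (adjusted p = 2.87e-08), apolpp by 1.33 (adjusted p = 9.03e-08) and Pepck1, a gluconeogenic enzyme, by 1.09 (adjusted p = 2.99e-06).

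In the LDC at 12g minus 6g with cold step and closed container, 2 of the 17 were called, both higher, and 5 had an unadjusted p under 0.05 (median 0.22, against 0.04 for all probe sets). Of all probe sets 7.71% were called there. Sardh rose by 2.06 (adjusted p = 0.000419) and apolpp rose by 1.85 (adjusted p = 0.0074). Of 8 measured genes on a list of adult fat body transcripts 3 rose there, among them Tsf1, a transferrin, by 2.01 (adjusted p = 0.00266) and Obp99b by 2.65 (adjusted p = 0.0065). In the magnet at 2g* minus 1g* closed, where Lsp2 rose, 4 of the 17 fat body genes were called, all higher (median 0.06, against -0.02 for all probe sets), among them apolpp by 0.79 (adjusted p = 0.00105) and Sardh by 0.75 (adjusted p = 0.00218). In that comparison 3.36% of all probe sets were called. The prophenoloxidases PPO1, PPO2 and PPO3, relatives of the hexamerins that serve melanisation, gave 3 calls in these comparisons, none in the members' direction. PPO1 was higher by 0.67 in the RPM after the cold step at 1g (adjusted p = 0.0489) and differed by -0.75 in the magnet at 1g* with cold step and closed container (adjusted p = 0.0149), where PPO2 differed by -0.56 (adjusted p = 0.0198). In the groups of these calls the mean of the 3 genes was dim. Group means lay between 4.41 and 4.94, below the lowest array median of 4.99.

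The fat body list did not follow the members everywhere. Over the 32 centred group means its mean correlated with Lsp2 at 0.19, with Fbp1 at 0.56 and with Fbp2 at 0.63, and for Lsp2 this was 0.81 over RPM groups, 0.93 over magnet groups and -0.01 over LDC groups. The adult fat body list's mean correlated with Lsp2 at 0.47 over RPM groups, 0.73 over magnet groups and -0.14 over LDC groups. Over LDC groups it correlated with Fbp1 at 0.30 and with Fbp2 at 0.44. In the LDC after the cold step in open containers 5 of the 17 fat body genes rose and 1 fell at 1g (median 0.09, against -0.04 for all probe sets), and 5 rose and 1 fell at 1g-rot (median 0.32, against 0.01). Of all probe sets 16% were called at 1g and 20.4% at 1g-rot. The list's mean there lay between 10.18 and 10.46 after the cold step at 1g, against 10.09 to 10.19 without constraint, while Lsp2, Fbp1 and Fbp2 had lower means after the cold step.

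Genes of the ecdysone pathway, which controls the storage protein genes, were measured for 17 of 21 listed. In the RPM at 1g after the cold step 1 rose and 6 fell (median -0.55). The early gene br differed by -1.84 (adjusted p = 0.00614), usp, the partner of the ecdysone receptor, by -0.55 (adjusted p = 0.0164), and ftz-f1, a nuclear receptor of the prepupa, by 1.27 (adjusted p = 0.00327). In the magnet at 1g* with cold step and closed container 8 rose and 1 fell (median 0.83), with ImpL2, a secreted insulin binding protein, at 1.76 (adjusted p = 4.25e-08) and the nuclear receptors Hr3 at 1.85 (adjusted p = 5.69e-05) and Eip78C at 1.65 (adjusted p = 1.28e-07). In the LDC at 12g minus 6g with cold step and closed container 2 were called, both higher, and 6 had an unadjusted p under 0.05 (median 0.63), ImpL2 by 1.38 (adjusted p = 0.00198) and ImpE2 by 3.67 (adjusted p = 0.0103). Of all probe sets 13.6%, 23.9% and 7.71% were called in these comparisons, in this order. Over the 32 centred group means the mean of this list correlated with Lsp2 at 0.55, Fbp1 at 0.63 and Fbp2 at 0.67.

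Autophagy and tissue remodelling genes, by which larval fat body cells are taken apart and freed, were measured for 19 of 22 listed. In the RPM at 1g after the cold step 1 rose and 6 fell (median -0.18), with Atg3, of the Atg8 conjugation machinery, at -0.72 (adjusted p = 0.00112) and Mmp2, a matrix metalloproteinase that frees fat body cells, at -1.67 (adjusted p = 0.00778). In the magnet at 1g* with cold step and closed container 9 rose and 1 fell (median 0.41). In the LDC at 12g minus 6g with cold step and closed container 2 were called, both lower, and 5 had an unadjusted p under 0.05 (median -0.16), while Lsp2, Fbp1 and Fbp2 rose there. The shares of all probe sets called in these comparisons were 13.6%, 23.9% and 7.71%, in this order.

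Transcripts of male reproductive organs, read from 22 measured of 23 listed genes of accessory gland and testis, moved against Lsp2 in particular, and their part in the results was not tested. Over the 32 centred group means the list's mean correlated with Lsp2 at -0.82, with Fbp1 at -0.55 and with Fbp2 at -0.49. Within facilities the correlation with Lsp2 was -0.68 over RPM groups, -0.92 over magnet groups and -0.84 over LDC groups. The female lists had negative correlations with Lsp2 over all groups too, at -0.70 for 11 genes of ovary and female fat body, yolk protein list included (0.30 over RPM groups, -0.83 over magnet groups and -0.72 over LDC groups) and at -0.72 for the 4 yolk protein list genes (0.56, -0.72 and -0.77). In the RPM and the magnet the group means of both female lists were at most 4.72, below the lowest array median of 4.99. The coefficients there describe dim values near the background. In the RPM at 1g after the cold step 3 of the 22 were called, all higher (median 0.66). That is close to the 13.6% called over all probe sets. The list's mean there lay between 6.63 and 7.34, against 5.58 to 6.71 without constraint. In the magnet at 1g* with cold step and closed container 14 were called, all lower (median -2.48), and the mean lay between 5.67 and 5.82, against 7.75 to 8.79 closed. At 2g* closed it lay between 6.48 and 7.42, with 12 of 22 lower than at 1g*. In the LDC with cold step and closed container it lay between 7.30 and 7.32 at 1g, 9.86 and 10.9 at 6g, and 7.31 and 8.36 at 12g, with 13 of 22 higher at 6g than at 1g and 11 of 22 lower at 12g than at 6g. Of all probe sets 23.9% were called in the comparison at 1g* and 3.36% at 2g* minus 1g* closed. In the LDC these shares were 6.4% at 6g minus 1g and 7.71% at 12g minus 6g.

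The accessory gland gene SP, the sex peptide, differed by -4.60 between 12g and 6g (adjusted p = 3.76e-05), where Fbp1 differed by 3.22. Transcripts of the yolk protein list of the female fat body, 4 genes, had 0 calls by limma in that comparison, with 1 at an unadjusted p under 0.05, and their mean lay between 5.77 and 6.20 at 12g, against 7.74 to 7.99 at 6g. Cuticle and tanning genes, 17 measured of 27 listed, had a mean that correlated with Lsp2 at 0.74, with Fbp1 at 0.58 and with Fbp2 at 0.47 over the 32 groups. For Lsp2 this was 0.98 over RPM groups, 0.83 over magnet groups and 0.75 over LDC groups. Among them 2 rose and 1 fell (median 0.91) at 12g minus 6g with cold step and closed container. Blood cell genes, 13 measured, had 2 calls there, both higher, with 7 at an unadjusted p under 0.05, and their mean lay between 8.44 and 8.70 at 12g, against 8.28 to 8.36 at 6g. Of all probe sets 7.71% were called in this comparison. The part of these groups in the members' values was not tested.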

How the data were processed

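Whole pupae were profiled on 90 Affymetrix Drosophila Genome 2 arrays. The deposited values are log2 intensities that the authors made with RMA, given to 2 decimals; the versions of RMA and limma are not given in the sources used here. Of 18952 probe sets, 183 controls were left out and 18769 tested; 13647 carry 1 gene symbol, 402 several and 4720 none. Groups follow the deposited labels, and the experiment of an LDC array follows the study's sample table. The study's methods give another cold step, and another length and temperature of the exposure, than the series description and labels, which are followed here.

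Comparisons (83: 39 of gravity, 27 of environment, 17 of differences between environments in the response to gravity) used limma 3.58.1 in R 4.3.3 (lmFit, eBayes, two-sided, 1 fit per facility, Benjamini-Hochberg over 18769 probe sets, threshold 0.05), tested on simulated data. All 6 listed genes were to be named through probe sets with 1 symbol, list genes by up to 4 smallest p, and likeness by the 3 highest Pearson correlations. Members and lists were chosen with earlier results of these data known. Alternatives were a fit of only the groups compared, replicate number as a block, quantile normalisation again, median centring, the dimmest 25% of probe sets left out, eBayes with trend and robust settings, an experiment term, arrays of 1 experiment only, Spearman correlation, and each array left out. The number of arrays limits the precision. Tables and figures used Python 3.11.15, pandas 2.3.3 and matplotlib 3.10.9.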

Additional observations from a re-analysis of the deposited data

Results flagged for a closer look

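Fbp1 in the RPM at 0g with cold step and closed container had 1 array at 11.47 and 3 between 12.04 and 12.07, so that the gap to the nearest array made up 0.95 of the range, above the critical value of 0.829 for 4 arrays. It was 1 of 6 such groups examined, and chance flags about 5% of groups.

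For Fbp2 in the LDC the 6g minus 1g difference was called as unlike in 2 environments. The 6g minus 1g difference with cold step and closed container minus that in closed containers without the cold step was -2.38 on the log2 scale (limma contrast of both differences, adjusted p = 0.0260). This call was lost when any of 7 single arrays was left out (adjusted p between 0.0608 and 0.120). In both environments the 6g arrays were of the second experiment and the 1g arrays of the first.

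Lsp2 after the cold step in open containers at 1g moved in opposite directions in different facilities, in every array: -0.58 in the RPM and -1.15 in the LDC, and 0.25 in the magnet. The difference between facilities was not tested.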

How the results depend on the processing

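None of the called differences of a storage protein gene changed direction under the alternatives run. The count of calls in RPM environment comparisons (3) was 5 with the dimmest probe sets left out and 5 with trend and robust settings, and between 1 and 6 with single arrays left out. RPM gravity comparisons kept 0 calls under each alternative, with single arrays left out too. The 1 call in magnet gravity comparisons became 0 in a fit of only the groups compared and lay between 0 and 1 with arrays left out, and the 8 calls in magnet environment comparisons lay between 6 and 9. In the LDC the 5 gravity calls became 9 in a fit of only the groups compared, of which 2 were among the 5 (Fbp1 and Fbp2 at 12g minus 6g; the 3 Lsp2 calls were lost), and 3 with the experiment term, all among the 5, and lay between 2 and 8 with arrays left out. The 8 LDC environment calls became 5 in a fit of only the groups compared, 3 of them among the 8, and lay between 5 and 14. The 1 call among LDC differences between environments became 2 in a fit of only the groups compared, 2 with the dimmest probe sets left out and 3 with the experiment term, and lay between 0 and 4.

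Replicate numbers of the titles did not pair the samples: every pair's correlation was over 0.1 in 0 of 3 RPM, 1 of 12 magnet and 6 of 24 LDC gravity comparisons. With the replicate block, calls of environment comparisons were 2 in the RPM, where Fbp1 after the cold step at 1g was lost (-0.61, adjusted p = 0.0565), and 7 in the LDC, where Fbp2 closed minus no constraint at 12g was lost (-1.10, adjusted p = 0.0601), and the other counts were as before. The other alternatives kept each count of calls within 1.5 times. Each member has 1 probe set, so a mean over probe sets was not run. By Spearman correlation hll stayed first for Lsp2 (0.93), CG8100 first for Fbp1 (0.87) and Fbp2 (0.94), and CG4199 stood 16th for Lsp2 (0.85). Groups of 2 arrays, and single arrays such as the LDC one at 9.87, limit the LDC values most. For LDC closed containers, 6g and 12g could not be set against 1g within 1 experiment.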
